A study of Mus musculus with 10 samples.

Results

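The m6A peaks that were still listed in mouse brain after knockout of Mettl14 are described here. They are all entries of the list called from knockout (KO) m6A-IP against KO input libraries, merged where their exonic blocks overlapped on a strand. The 3733 entries gave 3673 peaks in 2879 genes, of 18682 merged peaks in the KO and wild-type (WT) lists together. The study profiled m6A in polyA RNA from the cortex and hippocampus of mice on postnatal day 5. The KO group had 2 m6A-IP and 2 input libraries from brain in which Mettl14 was removed by Nestin-Cre. The WT group had 3 m6A-IP and 3 input libraries, and its list of 15009 peaks in 7717 genes serves as a reference for composition. All 10 libraries shared the tissue, the Trizol extraction and the Illumina TruSeq kit, which keeps strand. A culture medium with B27 and N2 is named beside the tissue, so direct tissue and cultured cells cannot be told apart. Nestin-Cre acts in the neural lineage and leaves Mettl14 in cells of other origin, such as microglia, vessels and meninges. The deleted part of Mettl14 is not stated. Mettl14 carried 1 WT peak, of 180 exonic bases, and 0 KO peaks, which does not measure its expression.

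N6-methyladenosine (m6A) is written on most mRNA by a nuclear complex of METTL3, the catalytic subunit, and METTL14, which helps to bind the RNA. Other enzymes also methylate RNA, among them METTL16, which acts on the Mat2a transcript, and PCIF1, which acts on an adenosine beside the cap. In m6A-seq an antibody enriches fragments of RNA, and regions with more IP than input reads are called peaks, so a peak is antibody enrichment and not a methylated base. Most m6A lies in the motif written DRACH (A, G or T, then A or G, then A, C, and A, C or T), in long exons and near stop codons.

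Each genotype has 1 consensus list, so no value below has a replicate error, and the depth of the libraries is unknown. Whether libraries of a genotype come from separate animals is not stated. Shares carry Wilson 95% intervals, and KO minus WT differences carry Newcombe 95% intervals. Both reflect counting error alone, and neither peaks nor genes are replicates. Whether a gene has a peak also depends on its expression, which the lists do not hold. The deposited score was taken for a p-value or a q-value, and a lower score is called stronger. Coordinates are those of GRCm38, counted from 1.

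Sequence could be read only at gene starts, from RefSeq promoters of GRCm38.p6, and for microRNAs. The first 50 bases of 80 RefSeq gene starts lay wholly under a KO peak of that gene, in 79 peaks. The strongest of these peaks whose window holds a DRACH match are shown first, with the match in capitals and up to 10 bases on each side, 5′ to 3′ on the RNA strand. All 5 peaks lay over a WT peak.
Ybx1: agcggagagcGGACCccag
Pou3f3: gacggagagcGAACTgtcaga
Naa15: gttaccacgtGAACCgccgacggag
Bccip: aggcgcagtgTGACCggcgacatgg
Nmt1: gatgagagtgAGACA

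The next set comes from genes that had no WT peak, again strongest first. Except for Cpt1c, these 6 peaks had scores that recur in the KO list, as described further on.
Cpt1c: agGGACAgaacgcggag
Col28a1: tcttcatcAAACCcctgccctca
Slc17a1: ttcacaaggtGGACAttgaacaact
Dreh: aGGACTataatctaat
Col17a1: acctttgtcaGGACTtgttttttga
Hepacam2: gaGAACAgggcgccgca

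The Ybx1 site, in the gene of a cold-shock domain RNA-binding protein, is at chr4:119294464-119294482 on the minus strand, under a peak of 208 exonic bases with a score of 1e-115. The Pou3f3 site, in the gene of a POU-domain factor of cortical neurons, is at chr1:42695797-42695817 on the plus strand, under a peak of 180 bases with a score of 1e-110. The Naa15, Bccip and Nmt1 sites are on the plus strand at chr3:51416029-51416053, chr7:133709337-133709361 and chr11:103028578-103028592. Naa15 encodes a subunit of the main N-terminal acetyltransferase, and Nmt1 an N-myristoyltransferase. Of the second set, the Cpt1c site is at chr7:44974835-44974851, the Col28a1 site at chr6:8192595-8192617, the Col17a1 site at chr19:47692013-47692037 and the Hepacam2 site at chr6:3494482-3494498, all on the minus strand. The Dreh site, in a long noncoding RNA, is at chr17:64767111-64767126 on the plus strand. The Slc17a1 site is at chr13:23869019-23869043 on the plus strand, under a peak of 150 bases with a score of 1.6e-16. A DRACH match, searched on the RNA strand only, was found in 36 of the 80 KO windows (45.0%, interval 34.6 to 55.9). It was found in 44.0% of the 434 windows under WT peaks and in 54.4% of all 32851 windows of the table. The letters GGAC were in 17.5% of the KO windows (interval 10.7 to 27.3), 24.0% of the WT windows and 18.9% of all windows. The first base was A in 36.2% of KO windows (interval 26.6 to 47.2), against 34.4% of all windows. Base composition differed, since G made up 36.5% of the bases in KO windows and 30.1% in all windows. Of the 80 KO windows, 46 also lay under a WT peak, which is 57.5% of the KO and 10.6% of the WT windows. A match is a description and not a methylated site.

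The only KO peak assigned to a microRNA gene was that of Mir1198, where all 121 bases of the hairpin, chrX:7807101-7807221 on the plus strand, made up the peak. Its mature sequences are shown with the seed (bases 2 to 8) in capitals.
mmu-miR-1198-5p: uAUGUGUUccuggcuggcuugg
mmu-miR-1198-3p: aAGCUAGCcucuaacucauggc

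Their seeds differ. The Mir1198 peak had a score of 6.3e-15, another recurring value, and no WT peak covered any base of the hairpin. The libraries were made from polyA RNA, so a longer transcript through the locus and the hairpin itself cannot be told apart.

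Most genes of the KO list had 1 peak. A KO peak was listed for 5.74% of the 49997 genes of all types in the RefSeq gene table and for 12.2% of its 21900 protein-coding genes, against 34.3% with a WT peak. Of the 2879 KO genes, 2306 had 1 peak (80.1%, interval 78.6 to 81.5), 402 had 2, 105 had 3, and 66 had 4 or more. In the WT list 50.4% of the genes had 1 peak, so the share was 29.7 percentage points higher in KO (interval 27.8 to 31.5). Against only the 3673 strongest WT peaks, called the shortened WT list below, the difference was 6.52 points (interval 4.31 to 8.74). Neighbouring KO peaks of a gene lay a median of 2193 bases apart along the chromosome (853 pairs), against 725 bases in WT (7370 pairs). Of the 7717 genes with a WT peak, 27.0% (2080) had a KO peak. Among these 2080 genes, 1254 had fewer KO than WT peaks, 708 had as many and 118 (5.67%) had more. All 66 genes with 4 or more KO peaks also had a WT peak.

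**Figure D1:**
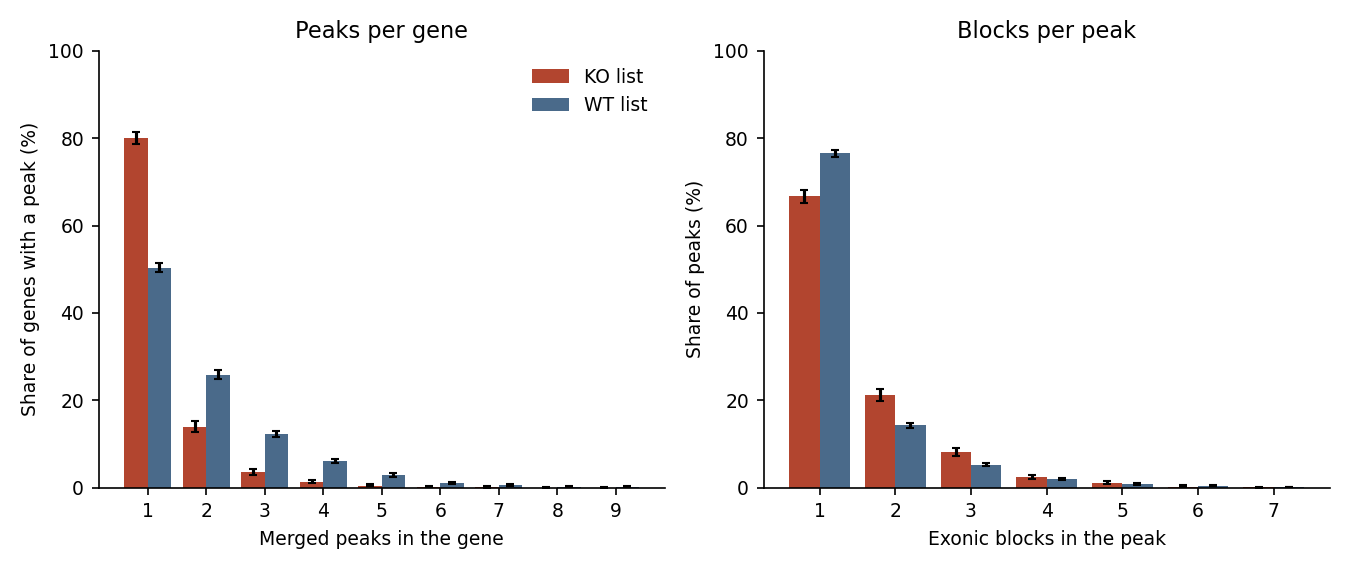
Left, the share of genes (percent of genes with a peak) by the number of merged peaks in the gene, up to 9; right, the share of peaks (percent) by the number of exonic blocks, up to 7, for the KO (red) and WT (blue) lists. Error bars are Wilson 95% intervals over genes or peaks; 80.1% of KO genes had 1 peak, against 50.4% in WT, and 66.7% of KO peaks had 1 block, against 76.5% in WT.

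The 15 genes with most KO peaks had 5 to 9 each, and Meg3 was the long noncoding RNA among them. Meg3, an imprinted long noncoding RNA made from the maternal allele, had 9 KO peaks over 3067 exonic bases, against 9 WT peaks over 2948. Its 8 KO peaks over WT bases lay between chr12:109559603 and chr12:109565300. They were 600, 241, 511, 451, 481, 211, 181 and 210 bases wide in order from the gene start. A ninth, of 181 bases, began at chr12:109545863, nearer the gene start, where no WT peak lay. Meg3 was thus the densest transcript of the list, and its KO peaks covered about as many bases as its WT peaks.

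Nfix, a transcription factor of the nuclear factor I family that acts in neural progenitors, had 7 KO peaks over 1651 bases and 7 WT peaks over 2220. The widest Nfix peak, of 659 bases from chr8:84705221 to chr8:84705879, shared 480 of its bases with WT peaks. The peak nearest the Nfix gene end (180 bases, score 2.5e-17) lay where WT had none. Tnrc18, a large chromatin-associated gene, also had 7 KO peaks, against 10 WT peaks. Map1b, a microtubule-associated protein of axons, had 6 KO peaks of 240, 210, 390, 360, 630 and 390 bases, every one wholly inside WT peak bases. In Map1b the KO peaks summed to 2220 bases and the WT peaks to 3660.

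In some genes with more KO than WT peaks, several KO peaks lay under 1 long WT peak. Myh10, which encodes nonmuscle myosin heavy chain IIB, had 5 KO peaks of 330, 330, 360, 360 and 210 bases, each on 2 or 3 blocks. Its WT list had 2 peaks, of which the longer spanned 19 blocks and 3024 bases, and all 5 KO peaks lay wholly over WT bases. Pou3f2, a single-exon POU factor of upper-layer neurons, had 4 KO peaks inside 2 WT peaks of 1436 bases in sum. Lmtk3, a membrane kinase, had 6 KO peaks over 4 WT peaks, and the KO bases (1383) were fewer than the WT bases (3505). In these 3 genes the KO peaks were more numerous but covered fewer bases than the WT peaks.

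**Figure D2:**
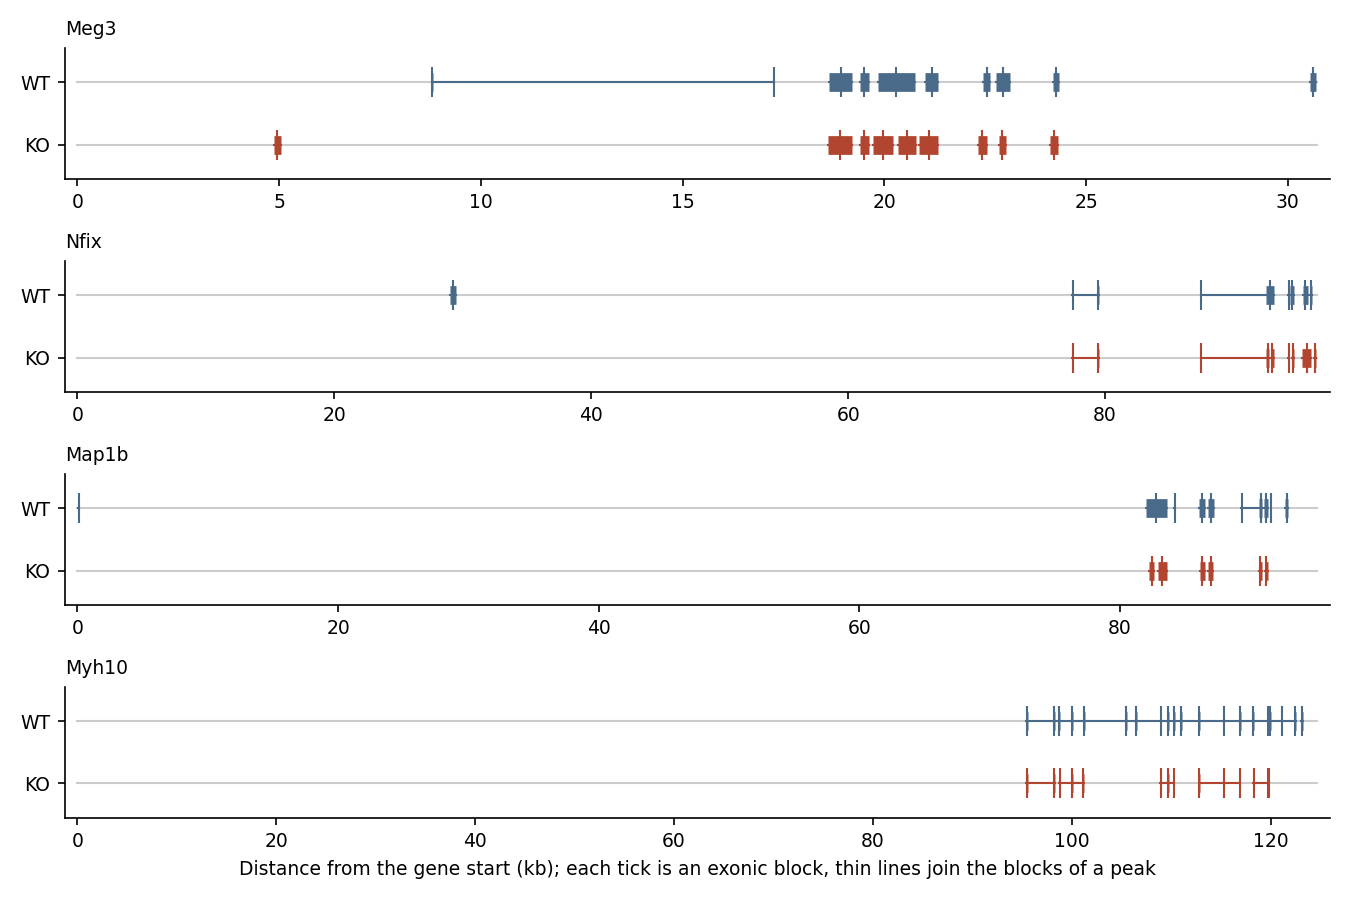
Exonic blocks of KO (red) and WT (blue) peaks in Meg3, Nfix, Map1b and Myh10, by distance from the gene start in kilobases; ticks mark blocks, thin coloured lines join the blocks of a peak and the grey line is the gene. Meg3 had 9 KO peaks and Map1b 6, and the 5 KO peaks of Myh10 lay under a WT peak of 19 blocks.

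KO peaks were more often split over exons than WT peaks. Of the 3673 KO peaks, 2451 had 1 exonic block, 779 had 2, 298 had 3, 91 had 4, and 54 had 5 or more. Peaks on 2 or more blocks made up 33.3% (interval 31.8 to 34.8) of the KO and 23.5% of the WT list, a difference of 9.80 points (interval 8.15 to 11.5). Against the shortened WT list the difference was 4.87 points. The KO list held 0 peaks of 8 or more blocks, and the WT list held 42. The median width over exons was 151 bases for KO and 208 for WT peaks. The share of split peaks was nevertheless higher in KO in each of 5 width classes. It was 17.7% against 10.5% at widths up to 100 bases, 34.6% against 20.8% from 151 to 200 bases, and 48.2% against 34.6% above 300 bases. The smallest of the 5 differences was 7.14 points, with an interval from 4.47 upwards, and the largest was 17.0 points.

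The blocks of split KO peaks were short. The median block was 73 bases in peaks of 2 blocks and 70 bases in peaks of 3 or more, against 151 bases where the peak was unsplit. The gap between neighbouring blocks had a median of 1467 bases in peaks of 2 blocks. Peak widths came in steps: 96.0% of unsplit KO widths and 91.0% of unsplit WT widths were within 1 base of a multiple of 30.

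The 10 peaks with most blocks had 6 or 7. Eif3a, a subunit of translation initiation factor eIF3, had the widest KO peak, 1467 exonic bases on 7 blocks from chr19:60763102 to chr19:60771026, wholly inside WT bases. Rbm25, a splicing regulator, had 7 blocks and 927 bases, and Ap3d1, a subunit of the AP-3 sorting adaptor, 7 blocks and 599 bases. Peaks of 6 blocks were named in Fbf1, Smarcc2, Os9, Ddx46, Kif3a, Pdap1 and Psip1. Smarcc2 is a BAF chromatin remodelling subunit, Ddx46 a spliceosomal helicase and Kif3a a kinesin-2 motor. All 10 of these peaks lay over a WT peak, and Eif3a, Rbm25, Ap3d1, Smarcc2 and Kif3a had scores listed as 0.

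The strongest end of the list was mostly split peaks that WT also had. A score of 0, too small to be held, was given to 80 KO peaks in 71 genes, of a median width of 390.0 bases. Of these, 47 had 2 or more blocks, 77 lay over a WT peak and 3 were in long noncoding RNA genes. Among the widest were Nefm, a neurofilament subunit, with 1018 bases in 1 block, Ncl, the nucleolar protein nucleolin, with 779 bases, and Hnrnpul2, an hnRNP-like protein, with 721. Basp1, an abundant axonal growth protein, and Zc3h13, a cofactor of the m6A writer complex, had 689 each. The 3 score-0 peaks away from WT peaks were in Vangl2, a planar cell polarity gene (330 bases), Hsp90ab1, a cytosolic chaperone (180 bases), and AF366264 (805 bases). Vangl2 and Hsp90ab1 had WT peaks elsewhere in the gene, and AF366264 had none.

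The composition changed along the score. The 3673 peaks were ranked by score and cut into 5 classes of 734 or 735. From the strongest to the weakest class, peaks on 2 or more blocks went from 53.9% (interval 50.3 to 57.5) to 35.4%, 28.8%, 24.8% and 23.4% (interval 20.5 to 26.6). Peaks over a WT peak went from 85.3% to 61.9%, 49.7%, 47.3% and 41.1%, against 57.1% over the whole list. Peaks in genes without any WT peak went from 5.58% to 20.1%, 29.3%, 29.3% and 29.6%. The share near the gene start, with the midpoint within 200 bases, went from 1.77% to 6.28%. Median width fell from 269 to 91 bases over the same classes, so width and score cannot be told apart here.

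**Figure D3:**
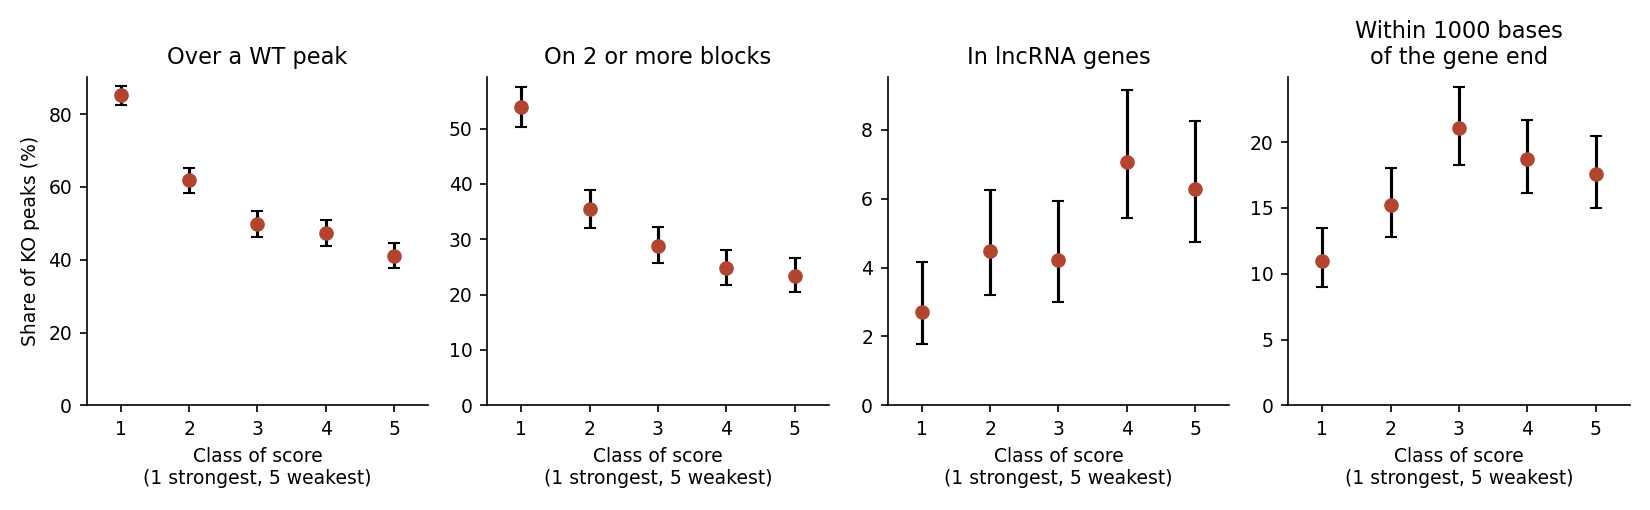
Share of KO peaks (percent) over a WT peak, on 2 or more exonic blocks, in long noncoding RNA genes and within 1000 bases of the gene end, in 5 classes of the deposited score from 1 (strongest) to 5 (weakest); the vertical scales differ. Points are shares and bars Wilson 95% intervals; peaks over a WT peak went from 85.3% to 41.1%, and peaks in long noncoding RNA genes were 2.72% in the strongest and 6.27% in the weakest class.

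KO peaks fell into 3 groups by their relation to WT. There were 2096 over a WT peak, 741 in a gene whose WT peaks lay elsewhere (20.2%) and 836 in a gene without one (22.8%). Of the 2096, 1601 (76.4%) lay wholly inside WT bases, and 0 KO peaks met a WT peak on the opposite strand only. Peaks over WT were split in 39.6% of cases, against 24.4% and 25.4% in the other groups. The midpoint lay within 1000 bases of the gene end for 8.36% of the peaks over WT (interval 7.25 to 9.62), 18.6% of those elsewhere in such genes and 36.1% of those in genes without a WT peak (interval 32.9 to 39.4). Over the whole list, 16.7% of KO and 16.5% of WT peaks lay near the gene end. The gene start took 4.23% of KO and 4.45% of WT peaks, a difference of -0.220 points (interval -0.914 to 0.550). Against the shortened WT list, which holds only the strongest WT peaks, it was 3.30 points (interval 2.59 to 4.05). Within KO the share was 1.77% in the strongest and 6.28% in the weakest score class. Score and genotype therefore cannot be told apart in this difference.

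A ladder of recurring scores ran through the weaker part of the KO list. The values 9.1e-07, 2.2e-08, 5.4e-10, 1.3e-11, 3.2e-13, 6.3e-15, 1.6e-16 and 3.2e-18 were each given to 31 to 81 entries. The next most frequent value above 0 was given to 28. Neighbouring values were 1.60 to 1.71 apart on the -log10 scale. Together they held 493 KO entries (13.2%), and the same values held 144 WT entries (0.954%). The minimum of 30 entries was chosen after the values were seen. The ladder went on below that minimum, at 7.9e-20 (27 entries), 1.6e-21 (24) and 4e-23 (15), where WT had 22, 17 and 17 entries. In these 3 steps 70.4%, 62.5% and 66.7% of the KO peaks were in genes without a WT peak. They are counted among the other scores here. What makes the caller give the same score many times was not tested.

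Peaks at the recurring scores differed in composition from the other KO peaks. The 483 merged peaks at them lay in 475 genes, and 383 (79.3%, interval 75.5 to 82.7) were in genes without a WT peak, against 14.2% of the 3190 other peaks (interval 13.0 to 15.5). They were in long noncoding RNA genes in 19.9% of cases against 2.70%, and near the gene end in 36.0% against 13.8%. They lay over a WT peak in 10.1% against 64.2%. Median width rose along the ladder from 90 bases at 9.1e-07 to 179 at 3.2e-18. Of the 799 genes with a KO and no WT peak, 362 had only peaks at these scores. Without them the KO share near the gene end was 13.8%, and its difference from WT was -2.63 points, where it was 0.277 points with them.

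**Figure D4:**
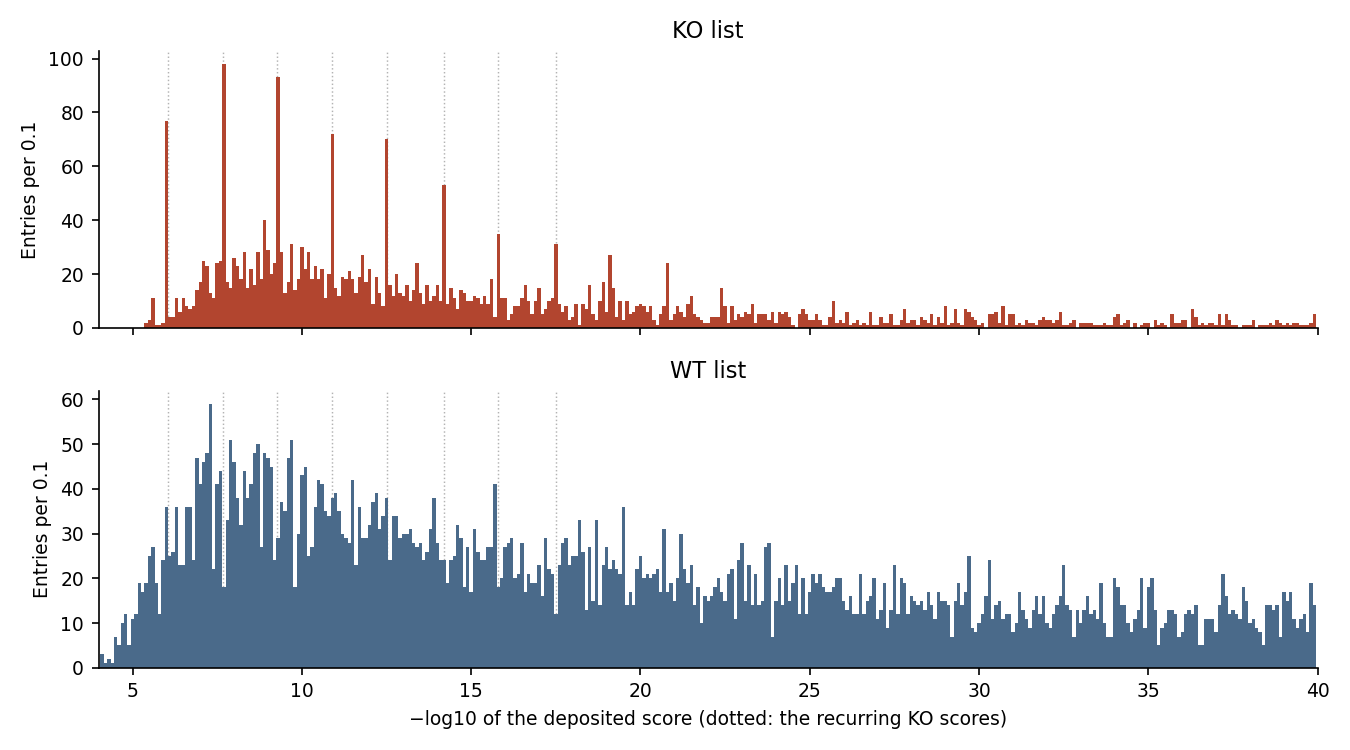
Number of entries per 0.1 of -log10 of the deposited score in the KO list (top) and the WT list (bottom), shown from 4 to 40, with dotted lines at the 8 recurring KO scores; vertical scales differ and scores of 0 are left out. The KO list has narrow spikes at the dotted lines, of 31 to 81 entries at the exact value.

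By gene type, the KO list was 94.1% protein-coding (3458 peaks). Long noncoding RNA genes had 182 peaks (4.96%, interval 4.30 to 5.71), against 1.61% of WT peaks, a difference of 3.35 points (interval 2.66 to 4.12). With each peak counted under its first gene name, such genes numbered 161 in KO and 163 in WT, but only 30 of the 161 (18.6%, interval 13.4 to 25.4) had a WT peak. Of 2636 protein-coding KO genes counted the same way, 2009 (76.2%) had one. With all names of shared peaks counted, 163 KO and 164 WT genes were found among the 12731 long noncoding RNA genes of the table, so 1.28% had a KO peak and 1.29% a WT peak. Genes with Gm or Rik names held 135 of the 182 KO peaks (74.2%), against 167 of 241 WT peaks in long noncoding RNA genes (69.3%). Of the 182 KO peaks, 96 were at a recurring score. The difference from WT was 1.09 points without the recurring scores and 0.844 points without Gm and Rik names. Long noncoding RNA peaks were split less often than protein-coding ones, 20.9% against 34.2%.

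Among named nuclear long noncoding RNAs, Malat1, an RNA of nuclear speckles, had KO peaks of 420 and 301 bases (scores 0 and 3.2e-58), both inside WT bases. Neat1, the scaffold of paraspeckles, had 3 KO peaks of 211, 150 and 91 bases, of which the last lay over a WT peak. The Neat1 peak of 211 bases had the score 7.9e-20, a further step of the ladder, and without scores listed 10 or more times 1 Neat1 peak was left. Miat had 3, of 61, 121 and 91 bases. Kcnq1ot1, the antisense RNA of an imprinted domain, had peaks of 391, 61 and 420 bases at chr7:143226817-143227207, chr7:143242293-143242353 and chr7:143242473-143242892 with no WT peak in the gene. Of 25 nuclear long noncoding RNAs listed, 10 had a KO peak and 9 a WT peak. Among all long noncoding RNA genes of the table the shares were 1.28% and 1.29%. The list was drawn up with earlier results of these data known, so its share is no independent evidence. Of its 26 KO peaks 0 were split, and 9 of the 26 were those of Meg3. The number of exons of each gene was not available, so its part in this was not tested.

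Of 7 genes of the X-inactivation centre, Ftx and Jpx had KO peaks, and neither had a WT peak. The Jpx peak was 330 bases wide with a score of 4e-76, and the Ftx peaks were 91 and 151 bases wide. The X chromosome held 131 KO peaks (3.57%, interval 3.01 to 4.22), against 2.39% of WT peaks, a difference of 1.17 points (interval 0.565 to 1.86). That is 36.5 KO peaks per 100 WT peaks on X, with 21.4 to 28.2 on the autosomes. The sex of the animals is not stated. The other types were 23 peaks in transcribed pseudogenes, led by Morf4l1-ps1 (481 bases, score 4e-23), 1 in a pseudogene, 2 in antisense RNAs (Dlx1as and Emx2os), the Mir1198 peak and 6 in genes not in the table. Rn45s, the precursor of ribosomal RNA, had 3 of those 6. Of the 23 transcribed pseudogene peaks 13 were at a recurring score, as were the Emx2os peak and 2 of the 6. The Morf4l1-ps1 score, 4e-23, is a further step of the ladder.

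Families differed in how often their peaks were split. Kinesins and myosins had a KO peak in 28 of 83 genes (33.7%), against 12.2% of all protein-coding genes. Of their 58 peaks, 47 (81.0%) were split, against 33.3% over the list. Kif5a, a neuronal kinesin-1, had 5 KO peaks of 121, 271, 390, 181 and 210 bases on 1, 1, 5, 2 and 3 blocks. Homeobox genes of the Hox, Lhx, Pou and Dlx families had peaks in 14 of 68 genes (20.6%), and 0 of 20 peaks were split. Of these 20 peaks, 7 were at recurring scores, and 6 of the 14 genes had only such peaks. Without the recurring scores 8 of the 68 genes were left. Cadherins and protocadherins had 0 split peaks of 16. Sox and forkhead genes had 2 split of 19, with Sox4, a progenitor factor of a single exon, carrying 3 KO peaks of 210, 359 and 240 bases. All 3 Sox4 peaks lay inside WT bases. The number of exons of each gene was not available here, so its part in these shares was not tested.

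RNA-processing genes were numerous in the strong part of the list. This pattern of symbols (Rbm, Hnrnp, Srsf, Ddx, Dhx and related names) was added after values were seen. Of its 179 genes, 66 (36.9%) had a KO peak and 127 a WT peak, against 12.2% and 34.3% of all protein-coding genes. Of the 127, 48.8% had a KO peak, against 27.0% of all genes with a WT peak. Of its 98 KO peaks, 60 were split, 86 lay over a WT peak and 44 were in the strongest of the 5 score classes. Hnrnpul2 had 4 peaks of 721, 241, 180 and 211 bases, all over WT peaks. Chromatin regulators, a list drawn up with earlier results known, had a KO peak in 30 of 44 genes (68.2%) and a WT peak in 43, with 40 of 75 peaks split. Chd5, a neuronal chromodomain remodeller, had 5 KO peaks of 390, 540, 210, 210 and 390 bases, each on 2 to 5 blocks. Chd3, of the NuRD complex, had 4 peaks of 391, 121, 690 and 630 bases.

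Genes of the m6A machinery were partly listed, which can be set against 12.2% of all protein-coding genes and 27.0% of genes with a WT peak. Of 12 writers and cofactors, Zc3h13 had 4 KO peaks of 151, 689, 301 and 240 bases and Rbm15b, an adaptor of the writer complex, had 2, of 270 and 60 bases. All 6 lay over WT peaks. These 2 genes are 16.7% of the list, and 8 of the 12 had a WT peak, so writers were near the background. Of 14 readers and erasers, 6 had a KO peak, namely Prrc2a, Ythdc1, Hnrnpa2b1, Hnrnpc, Fmr1 and Alkbh5, and 10 had a WT peak. Among the KO peaks of these 6 genes, 9 of 10 lay over WT. Mat2a, the methionine adenosyltransferase and METTL16 substrate, was the only 1 of 9 genes of its list with a KO peak, and 3 had a WT peak. The Mat2a peak was 121 bases at chr6:72439436-72439556, with its midpoint 60 bases from the gene start, wholly over WT bases, and away from the gene end, which was 6700 bases off. The hairpins of Mat2a that METTL16 is known to methylate lie at the 3′ end of the transcript. Which enzyme, if any, lies behind the Mat2a peak was not tested.

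Neuronal genes were listed often in both genotypes. Of 18 neuron markers, 10 had a KO peak and 13 a WT peak, and all 15 KO peaks lay over WT. Rbfox3, the NeuN antigen, had 4, of 150, 269, 359 and 180 bases. Of 45 synaptic and axonal genes 34 had a KO peak, with 65 of 93 peaks over WT, and of 38 progenitor regulators 21 had one, with 35 of 42 over WT. These lists were drawn up with earlier results of these data known, so their shares are no independent evidence, and the share over all genes with a WT peak was 27.0%. Of 21 immediate early genes, 6 had a KO peak, among them Egr1 with 2, and 19 had a WT peak. All 6 were among the 19, a share of 31.6% beside the 27.0% over all genes with a WT peak. Without the recurring scores 4 of the 6 were left. Of 46 imprinted genes, 11 had a KO peak, and 12 of their 23 peaks were in the strongest class, 9 of the 23 being those of Meg3.

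Markers of microglia, vessels and meninges had KO peaks in 12.5%, 22.2% and 33.3% of genes, against 12.2% of all protein-coding genes. Of 16 microglia and macrophage markers, Cx3cr1 (209 bases) and Siglech (91 bases) had a KO peak, both over a WT peak. Of 18 endothelial and mural markers 4 had one, of 12 meningeal markers 4, and of 10 blood cell markers 1, Cd3e. WT peaks were listed for 7, 10, 7 and 0 of these genes. Acta2, among the 4 endothelial and mural genes, had 2 KO peaks, both at recurring scores, and no WT peak. Without the recurring scores 3 of the 18 endothelial and mural markers had a KO peak. Of 13 astrocyte markers 5 had a KO and 11 a WT peak. Of 14 oligodendrocyte lineage markers, 2 had a KO peak and 8 a WT peak, with 0 in both lists. Mog, a myelin protein, had a KO peak of 151 bases. Peaks of non-neural cells and of recombined cells cannot be told apart in these lists. In bulk RNA, fewer cells of a type and less RNA per cell cannot be told apart either.

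**Figure D5:**
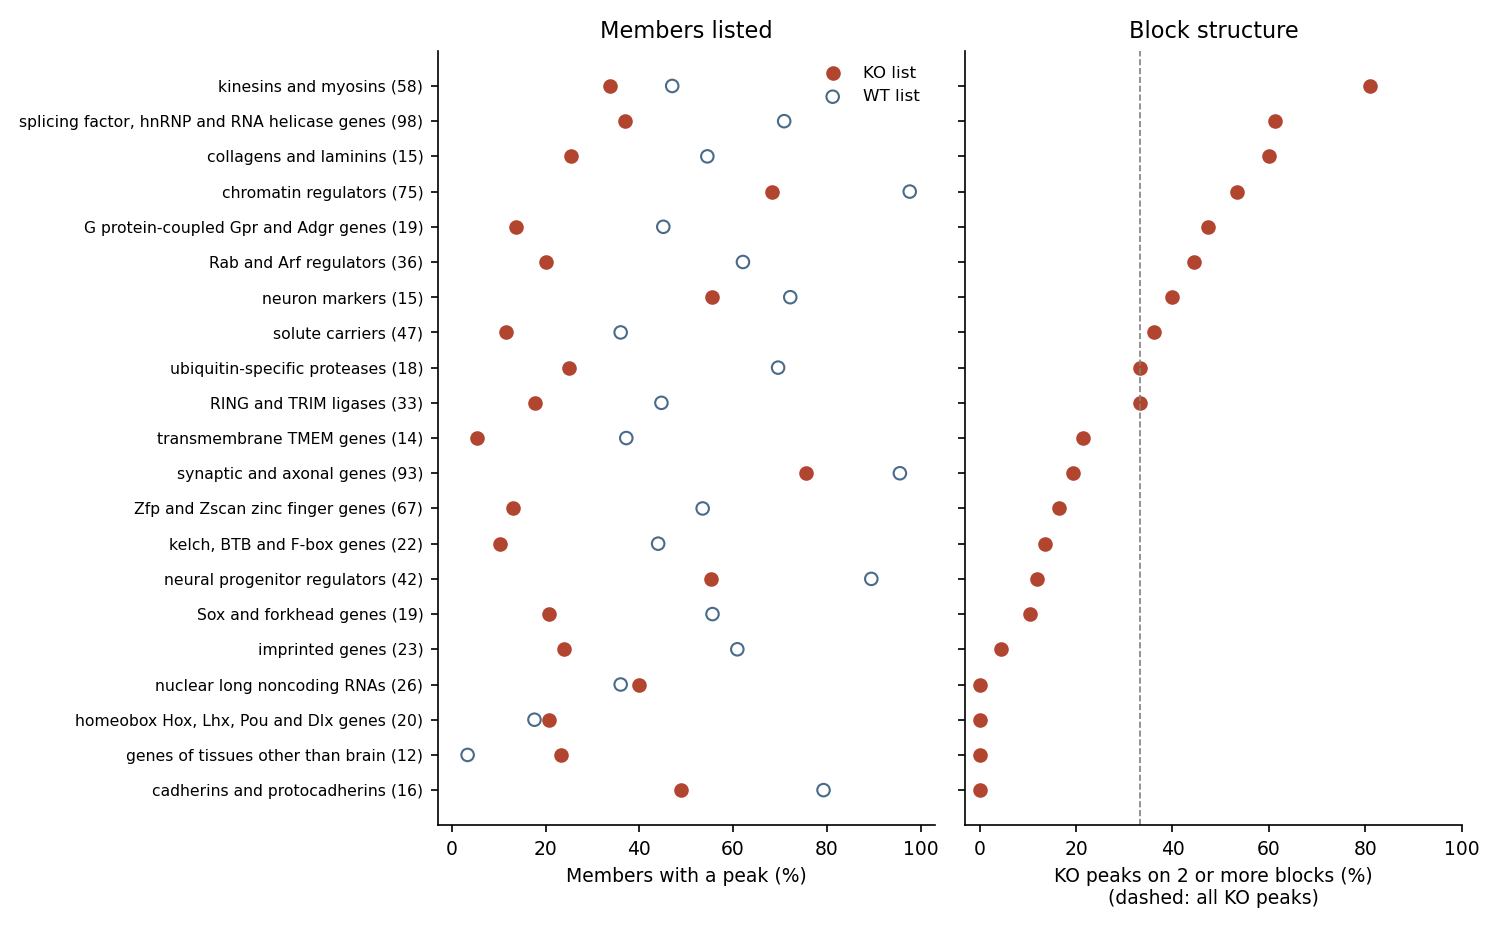
Families and lists with 12 or more KO peaks (number of KO peaks in parentheses): left, the share of members (percent) with a KO peak (filled) and with a WT peak (open); right, the share of KO peaks on 2 or more blocks (percent), with a dashed line at 33.3% for all KO peaks. Kinesins and myosins stand at 81.0% split peaks, and homeobox genes and cadherins at 0; the cadherin share of members counts all names of shared peaks.

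Large families differed in how many members were listed. Zinc finger genes named Zfp or Zscan had a KO peak in 55 of 424 (13.0%) and a WT peak in 227. Solute carriers had one in 43 of 375 (11.5%), and TMEM genes in 13 of 239. Semaphorins, plexins, ephrins and Eph receptors had a KO peak in 7 of 51 genes and a WT peak in 41. Mitochondrial ribosomal proteins had a KO peak in 2 of 78 genes (Mrpl1 and Mrpl17) and a WT peak in 30, with 0 genes in both. Keratins had 0 KO peaks in 109 genes. Set against the 12.2% of all protein-coding genes, zinc finger genes and solute carriers were near the background.

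In a few families most KO peaks were at recurring scores. Olfactory receptors had a KO peak in 9 of 1110 genes and a WT peak in 0, and 8 of the 9 peaks were at a recurring score. The other, of Olfr1033 (211 bases), had the score 7.9e-20, the next step of the ladder. Vomeronasal receptors had a KO peak in 2 of 355 genes, both at recurring scores, and a WT peak in 0. Cytochrome P450 genes had a KO peak in 6 of 99 genes and a WT peak in 6, with 1 gene in both, and 5 of their 6 KO peaks were at recurring scores. Hoxb8 had 2 KO peaks, both at recurring scores, and no WT peak. Receptors and P450 genes have close copies, so which copy a peak belongs to is uncertain.

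Of 30 genes typical of other tissues, 7 had a KO peak and 1 a WT peak. Of these, 6 were put on the list with their peaks already known, so their count supports nothing. Of the other 24 only Afp had one, of 90 bases and at a recurring score. Among the 6, Pou1f1, a pituitary factor, had a peak of 654 bases, and Pax5, a B-cell and midbrain factor, had peaks of 361 and 271 bases. None of these Pou1f1 and Pax5 peaks was at the 8 recurring scores, but the Pax5 peak of 271 bases had the next step, 7.9e-20. Of all 12 KO peaks of the 30 genes, 5 were at a recurring score, among them 1 each in Cytip and Klhl31.

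Some peaks carried the names of several genes. There were 17 such peaks. A Pcdhg cluster peak carried 25 names and a Pcdha cluster peak 14, where variable first exons share the same last exons. Of 45 cadherin and protocadherin genes with a KO peak, 33 were listed only through such shared peaks. Other shared peaks were those of Ugt1a genes, of Klra15, Klra18, Klra22 and Klra4, of Npcd and Nptxr, and of H2-D1 and H2-L. For these genes the count of genes with a peak is larger than the count of peaks.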

How the data were processed

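The deposited files were 2 consensus peak lists, 1 per genotype. Per the submitters' processing notes, the authors used STAR and GRCm38, with no version named. The caller and the way libraries were pooled are not given in the sources used. The deposited score was read as a p-value or q-value, since each value lay between 0 and 0.00015 in WT and reached 4.4e-06 in KO. Which of these it is remains unstated.

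Within a list, entries sharing exonic bases on a strand were merged, keeping the lowest score. A KO peak lay over a WT peak when at least 1 exonic base was shared on the strand. Gene types, spans and sequences came from RefSeq tables of GRCm38.p6, in which 99.8% of KO peaks had their gene. Families were taken by symbol among protein-coding genes (all types for Gm, Rik, Snhg and Mir genes). The ribosomal protein pattern gave 3 of 101 genes with a KO peak, Rpl4, Rps14 and the kinase gene Rps6kc1.

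Named items were Mettl14, the 15 genes with most KO peaks, the 10 with the longest KO exonic length, the 10 peaks with the lowest score and the 10 with most blocks, the 8 long noncoding RNA genes and 5 genes of each other noncoding type with most KO peaks, and 3 members of each list and family with most KO peaks, passing over Gm and Rik names. Some of these are not reported here, and genes named beyond this rule were chosen after their values were seen. Members and lists were chosen with earlier results of these data known. Counting, merging and intervals were done in Python 3.11.15 with numpy 2.4.6 and were tested on simulated data. No significance test was made, since the lists hold no values per library. Alternatives are given in the closing section.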

Additional observations from a re-analysis of the deposited data

How the results depend on the processing

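No paired analysis was possible because neither list gives a value per library. For the same cause no replicate could be left out. Settings added after seeing the data were the KO list without its 8 recurring scores, and the shortened WT list for single-peak genes, the gene end and the gene start. The differences for genes with 1 peak, split peaks and long noncoding RNA kept their sign in every setting. The difference near the gene end was 0.277 points, with an interval that spans 0. It was -2.63 without the recurring scores (interval -3.93 to -1.26) and -8.25 with a window of 5000 bases. With a window of 500 bases it was 1.08 (interval 0.117 to 2.12), so its sign depended on the setting. The difference near the gene start also changed sign. It went from -0.220, with an interval that spans 0, to 3.30 (interval 2.59 to 4.05) against the shortened WT list.

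Taking only the stronger 50% of entries left 1823 KO peaks. Genes with 1 peak made up 83.5% (19.7 points above WT), split peaks 41.3% (16.2 above), long noncoding RNA 3.51% (2.36 above) and peaks over WT 61.9%, and listed members summed to 401 instead of 759. Without scores listed 10 or more times, the planned rule, which also takes most WT peaks, 1985 peaks were left. The same values were 82.7% (3.85 above), 38.0% (16.0 above), 2.42% (0.851 above) and 18.6%, with 411 listed members. Without the recurring scores, genes with 1 peak made up 78.5%, long noncoding RNA 2.70% (1.09 above), the gene end 13.8% and peaks over WT 64.2%.

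Against the shortened WT list the differences were 6.52 points for genes with 1 peak and 4.87 for split peaks. Without Gm and Rik names long noncoding RNA made up 1.35% (0.844 above). Windows of 500 and 5000 bases at the gene end gave 8.59% and 48.9%, and of 100 and 500 bases at the gene start 1.96% and 7.96%. Asking for 50% of the KO peak to be covered left 54.0% over WT. Of all settings tried for these results, 35 were counted as moving them. The other 23 changed them by less than their interval or, for counts, by less than 1.5 times. The window of 500 bases for the difference near the gene end is among the 23. Of the values of single genes, 149 moved and 262 did not, and of the list counts 68 moved and 79 did not. Depth is unknown, so a gene without a peak may have too few reads to show one.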
